A study of Sus scrofa with 8 samples.

Results

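Lung gene expression was compared between Tibetan pigs (TH) and Duroc pigs (DH) that were both kept at 3500 m, a comparison of 2 breeds under the same low oxygen. It rested on 4 of the 8 arrays of the study, 2 per group, with 1 female pig per array and lung harvested at 6 months of age. TH pigs were native to 3500 m and were not moved. DH pigs came from a population at 40 m and were migrated to 3500 m at 1 month of age, so that breed, place of origin and the move cannot be told apart. The other 4 arrays held Tibetan pigs migrated to 40 m (TL) and Duroc pigs kept at 40 m (DL). Of the 43603 probes on the array outside the control spots, 30872 were well above background on at least 1 of the 4 arrays and were tested. All values below are log2 expression as deposited by the authors, and a difference is TH minus DH, so that 1 unit is a 2-fold difference and a negative value is a higher level in DH.

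The lung meets inhaled air with a lining of surfactant-producing and gas-exchanging alveolar cells, airway cells that secrete mucus and antimicrobial proteins, resident macrophages, and a dense bed of vessels. At high altitude oxygen is sensed in cells through prolyl hydroxylases that mark hypoxia-inducible factors for destruction, and pulmonary vessels constrict when alveolar oxygen is low. Peptides such as endothelin and the natriuretic peptides, and nitric oxide, set the tone of these vessels. Most transcripts of a piece of lung can also change when the share of airway, immune or blood cells in the piece changes.

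Within each group the arrays differed little. Pearson's r across tested probes, which are not independent replicates, was 0.982 between the TH arrays, 0.983 between the DH arrays and 0.956 to 0.960 between TH and DH arrays, and 5.0% (TH) and 4.56% (DH) of tested probes lay at least 1 log2 unit apart between the arrays of a group. For 41 probes printed in several spots, the median distance between spots was 0.05 log2 units on the same array, 0.07 between the TH arrays, 0.05 between the DH arrays and 0.37 between TH and DH arrays. The spread between arrays of a group was thus near that between spots of one array, and p-values measure only this spread, which may be technical. Between 26465 and 29316 probes were well above background on each array and no spot was saturated. Both TH arrays lay on 1 slide and both DH arrays on the other, so that slide and group cannot be told apart in any difference below. The tissue carried the transcripts of lung on all 4 arrays. SFTPC, the surfactant protein made by alveolar type II cells, had 18.60 and 18.55 in TH and 18.90 and 19.04 in DH, and all 7 tested members of the surfactant list and all 21 of the endothelial list were well above background on every array. No probe with the name SCGB1A1, the club cell secretory protein, was tested.

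Between the breeds 3181 of 30872 tested probes differed (10.3%) at an adjusted p below 0.05 in limma together with a difference of at least 1 log2 unit, which is what "higher" means below. TH was higher for 1565 (5.07%) and DH for 1616 (5.23%), and the median size of these differences was 1.48 log2 units. By at least 2 log2 units 536 probes were higher in TH and 343 in DH, of which 215 and 133 were well above background on all 4 arrays; for the others the size depends on the floor of the array. Of the called probes, 506 were not well above background in DH and 380 not in TH. Without the minimum difference 17509 probes passed (56.7%), and at the methods' FDR of 0.0001 none passed in limma, where 19537 had an unadjusted p below 0.05 and the smallest adjusted p was 0.00129. The methods set that FDR for a two-way model of breed and altitude over all groups, not for this contrast of 4 arrays. Filtering to probes well above background on all 4 arrays left 2098 calls, 954 of them higher in TH (45.5%). Correcting the raw signal for local background with 50 added to it (below, the offset of 50), which shrinks differences of dim probes, left 1017, of which 577 (56.7%) were higher in TH, against 49.2% of the 3181; scaling to the 75th percentile put 54.8% of its calls on the side of TH.

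**Figure D1:**
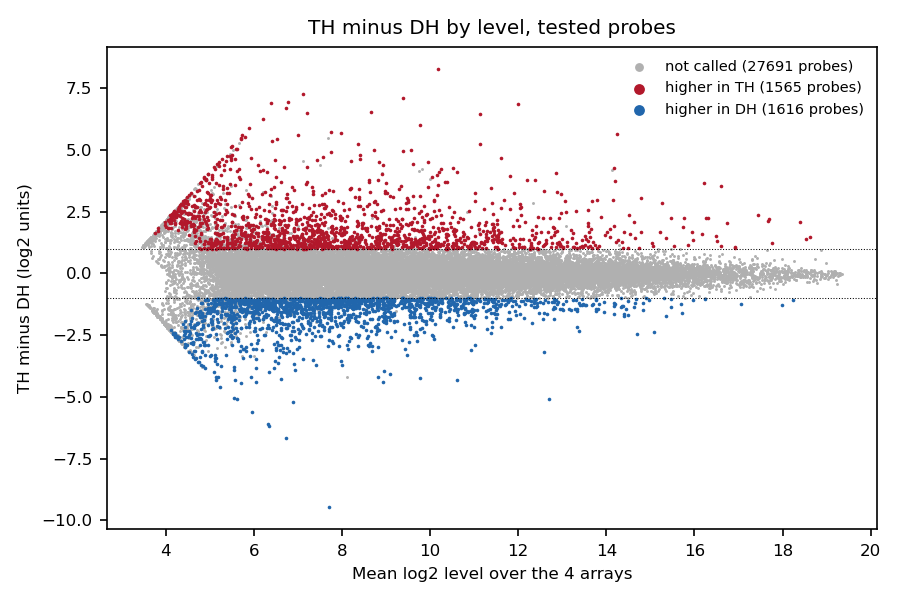
Difference between TH and DH (TH minus DH, log2 units) of each of 30872 tested probes against its mean log2 level over the 4 arrays; dotted lines mark 1 log2 unit either way. The 1565 probes higher in TH and the 1616 higher in DH spread over all levels, and the straight edges at low levels come from probes that were near the floor in one of the groups.

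A gene symbol was at hand for 3749 genes, each taken at its brightest tested probe, and 514 of them differed (13.7%), 284 higher in TH (7.58%) and 230 higher in DH (6.13%), with a median of 0.001 log2 units over all 3749. The share of called probes was 13% with a symbol by RefSeq accession, 13.9% with one from the study's gene tables alone and 9.64% without a symbol. Where a gene was not well above background on either array of the lower group, its fold is given as a lower bound, for which each array of the lower group was set to the weakest signal that any probe well above its background had there, unless the probe's own signal exceeded it.

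AGR2, a protein disulfide isomerase of mucus-secreting cells, had the largest difference in favor of TH among genes with a full symbol whose brightest probe was well above background on all 4 arrays. Genes below background in one group are ordered by their deposited values, which does not settle their rank. For genes named because they were called, here and below, groups that lie apart follow largely from that choice. The values of AGR2 were 14.41 and 14.32 in TH and 8.02 and 7.82 in DH. This was an 86.9-fold higher level in TH and a difference of 6.44 (SE 0.09, adjusted p = 0.00133). MMP7 (matrilysin), a metalloproteinase secreted by epithelial cells, had 12.76 and 12.78 in TH and 6.82 and 6.75 in DH, a difference of 5.99 (SE 0.04, adjusted p = 0.00129). In both genes the pair of TH arrays lay far above the pair of DH arrays, with less than 0.25 log2 units between arrays of a group. CLCA1, a protein that goblet cells secrete with mucus, had 16.32 and 16.31 in TH and 12.02 and 12.08 in DH, a difference of 4.26 (SE 0.04, adjusted p = 0.00129), and its other probe differed by 4.11. LTF (lactoferrin), the iron-binding protein of airway secretions and neutrophil granules, had 12.69 and 12.64 in TH and 8.60 and 8.49 in DH, a difference of 4.12 (SE 0.06, adjusted p = 0.00129). TFF1, a trefoil peptide secreted with mucus, had 9.94 and 9.95 in TH and 5.16 and 5.28 in DH and lay at least 19.9-fold higher in TH.

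AMCF-II, a porcine chemokine that attracts neutrophils, had 10.62 and 10.65 in TH and 4.94 and 4.85 in DH and lay at least 32.2-fold higher in TH. SERPINB11, a member of the serpin family, had 12.07 and 12.06 in TH and 7.07 and 7.06 in DH, a difference of 5.0 (SE 0.03, adjusted p = 0.00129). SCG2 (secretogranin II), a granule protein of neuroendocrine cells, had 9.32 and 9.35 in TH and 3.11 and 3.06 in DH and lay at least 13.1-fold higher in TH, its DH values lying at the floor of the array. MATN1 (matrilin 1), a protein of cartilage matrix, had 10.80 and 10.86 in TH and 5.13 and 5.16 in DH and lay at least 36.9-fold higher in TH. MLC1, a membrane protein known from astrocytes, had 7.88 and 7.91 in TH and 3.39 and 3.15 in DH (at least 4.83-fold higher), and ADGRF1, an adhesion G protein-coupled receptor, had 7.28 and 7.26 in TH and 2.95 and 2.95 in DH (at least 3.13-fold higher). RHCG, an ammonia channel, had 8.23 and 8.37 in TH and 3.01 and 5.23 in DH, a difference of 4.18 (SE 0.91, adjusted p = 0.037) and a bound of at least 6.4-fold. The DH arrays of RHCG lay more than 2 log2 units apart, and its call was lost without either TH array (differences of 4.25 and 4.11, adjusted p = 0.135 and 0.141). With 1 array left in a group, here and below, that array is assumed to vary like the pair of the other group, for RHCG the DH arrays. Larger values fell outside the rule and were chosen after they were seen. C14H10orf99, known only by an open reading frame symbol, had 10.76 on both TH arrays and 3.68 and 3.31 in DH, where it was not well above background, and of the 2 tested COPA probes, which carry a coat protein of transport vesicles, 1 differed by 8.28 and the other, the brighter over the 4 arrays, by 0.04 and was not called.

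NPPB, which encodes brain natriuretic peptide, a vasodilator hormone, led the genes higher in DH by deposited values, though it was not well above background in TH. Its values were 3.22 and 3.30 in TH and 9.50 and 9.39 in DH, and DH was at least 18.3-fold higher, with a difference of -6.19 (SE 0.06, adjusted p = 0.00129). CCL24 (eotaxin 2), a chemokine that attracts eosinophils, had 10.98 and 11.04 in TH and 14.15 and 14.21 in DH, a 9.0-fold higher level in DH and a difference of -3.17 (SE 0.04, adjusted p = 0.00129). CYP1A1, the cytochrome P450 that the aryl hydrocarbon receptor induces, had 9.35 and 9.38 in TH and 12.49 and 12.47 in DH, an 8.66-fold higher level in DH and a difference of -3.11 (SE 0.03, adjusted p = 0.00129). In these 3 genes, chosen for their difference, the arrays of a group lay within 0.11 log2 units of each other.

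TYR (tyrosinase), the enzyme that starts melanin synthesis, had 3.02 and 2.90 in TH and 6.80 and 6.54 in DH and lay at least 2.67-fold higher in DH, with both TH values at the floor of the array. IGSF6, an immunoglobulin superfamily member of myeloid cells, had 6.08 and 6.24 in TH and 9.91 and 9.82 in DH, a difference of -3.71 (SE 0.08, adjusted p = 0.00148). ADAMTS19, a secreted metalloproteinase, had 7.86 and 7.93 in TH and 10.93 and 10.97 in DH, a difference of -3.06 (SE 0.04, adjusted p = 0.00129). IGSF5, an immunoglobulin superfamily protein of epithelial junctions, was at least 7.55-fold higher in DH, KIF1C, a kinesin motor, at least 7.09-fold, SNX16, a sorting nexin of endosomes, at least 4.56-fold, EYA3, a phosphatase and transcriptional coactivator, at least 7.42-fold, and MCAT, a mitochondrial acyltransferase of fatty acid synthesis, at least 4.14-fold. None of these 5 was well above background in TH, where their values lay between 3.0 and 5.22, and all lay between 7.26 and 8.29 in DH. CLCN5, a chloride and proton exchanger of endosomes, had 2.93 and 2.97 in TH and 6.90 and 5.90 in DH and a bound of at least 2.22-fold, and its call was lost without either TH array (adjusted p = 0.0641 and 0.0624). With the offset of 50 the differences of CLCN5 and MCAT were -0.73 and -0.89 and fell short of 1 log2 unit.

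**Figure D2:**
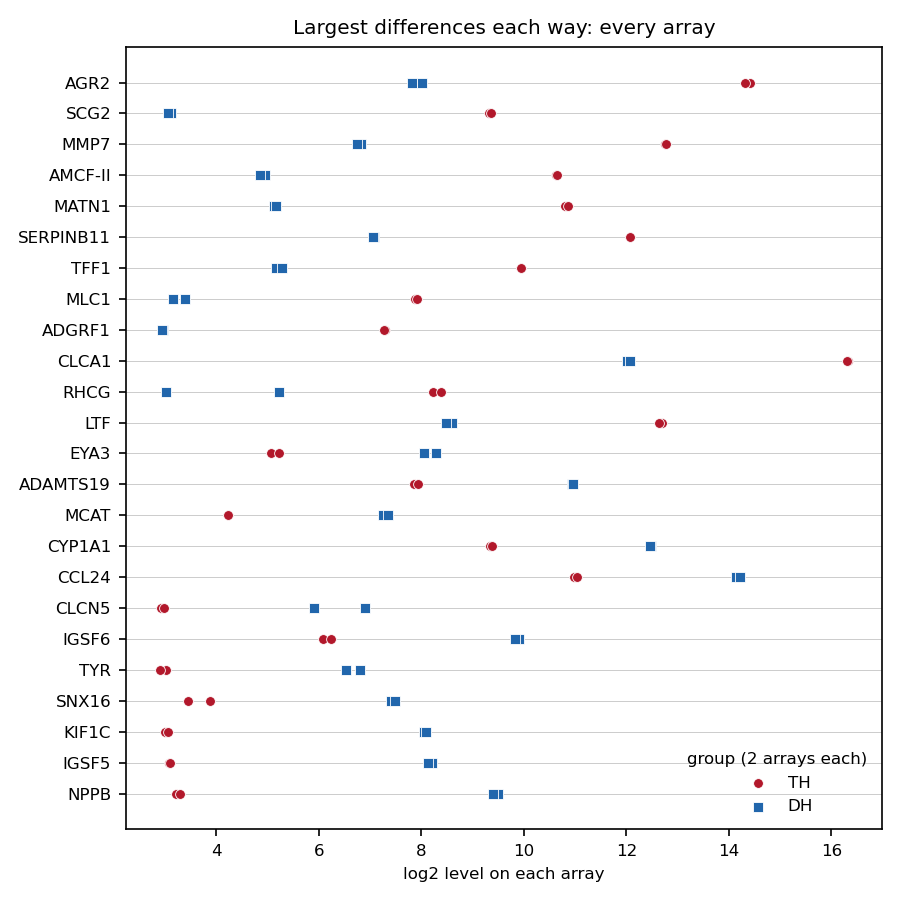
Log2 level of the 12 genes with the largest differences in favor of TH (upper rows) and of DH (lower rows) on every array; circles are the 2 TH arrays and squares the 2 DH arrays. The 24 genes were chosen by the size of their difference, so that groups that lie apart follow largely from that choice. The arrays of a group mostly coincide, and RHCG and CLCN5 have the widest spread among DH arrays.

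Secretory airway cells line the conducting airways and release mucus, antimicrobial proteins and the receptor that carries IgA. Of 9 tested genes of secretory airway cells and mucosal defense, 6 were higher in TH and 1 in DH (77.8% called, beside 13.7% of all named genes), with a median difference of 1.39. Beside AGR2 and LTF, BPIFA1, a surfactant-like defense protein of the upper airway, had 14.30 and 14.26 in TH and 10.46 and 10.53 in DH, a 13.8-fold higher level in TH and a difference of 3.79 (SE 0.04, adjusted p = 0.00129). DMBT1, a scavenger receptor protein that binds bacteria, had 10.97 and 10.99 in TH and 8.01 and 8.01 in DH, a difference of 2.97 (SE 0.03, adjusted p = 0.00129). The remaining members fell outside the rule for named genes (stated with the processing) and were chosen after their values were seen, as were all genes marked so below. BPIFB1, a relative of BPIFA1, differed by 1.39 (SE 0.04) and PIGR, the IgA transporter, by 1.07 (SE 0.05), both higher in TH. LYZ (lysozyme), which macrophages also make, had 13.49 and 13.47 in TH and 15.91 and 15.93 in DH and was 5.44-fold higher in DH, the opposite direction to the other called members. SLPI and WFDC2, protease inhibitors of airway fluid, differed by -0.21 and 0.60 and were not called. The mucin genes of the list had no tested probe with their name. The summed linear level of the 9 genes was 686000 and 685000 on the TH arrays and 555000 and 558000 on the DH arrays. In a piece of whole lung, more cells of a type and more RNA per cell cannot be told apart, here or in any list below.

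Most tested genes of the neutrophil and B cell lists were also higher in TH. Of 27 listed genes of neutrophils and their granule peptides 9 were tested, among them LTF, which also counted among airway genes. Of the 9, 8 were higher in TH and none in DH (88.9%, beside 13.7% of all named genes), with a median difference of 1.68. PGLYRP1, a granule protein that binds peptidoglycan, had 14.54 and 14.53 in TH and 11.60 and 11.59 in DH, a difference of 2.94 (SE 0.03, adjusted p = 0.00129). The proline-rich cathelicidin PR39 had 8.59 and 8.63 in TH and 6.43 and 6.38 in DH, a difference of 2.20 (SE 0.04, adjusted p = 0.00139), and RETN (resistin) had 9.38 and 9.37 in TH and 7.54 and 7.56 in DH, a difference of 1.83 (SE 0.03, adjusted p = 0.00133). For all 3 the TH arrays lay clearly above the DH arrays. MMP9, the granule gelatinase, differed by 1.68 (SE 0.03). Outside the rule, the cathelicidins PMAP-36 and NPG4 differed by 1.63 and 1.22, both called, and CHI3L1 was the member not called (0.94). The summed level of the list was 348000 and 343000 in TH and 160000 and 163000 in DH.

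Of 8 tested genes of B cells and plasma cells, 6 were higher in TH and none in DH (75%, beside 13.7% of all named genes). The median difference of the 8 was 2.12. IGKC, the constant region of the kappa light chain and the most direct mark of antibody-producing cells, had 18.37 and 18.39 in TH and 14.80 and 14.87 in DH, an 11.7-fold higher level in TH and a difference of 3.55 (SE 0.04, adjusted p = 0.00129). CD79A, a signaling chain of the B cell receptor, had 12.46 and 12.51 in TH and 9.58 and 9.55 in DH, a difference of 2.92 (SE 0.04, adjusted p = 0.00129). CR2, the complement receptor of B cells, had 12.13 and 12.16 in TH and 9.62 and 9.62 in DH, a difference of 2.52 (SE 0.03). All 3 were separated by more than 2 log2 units, while outside the rule MS4A1 (CD20) and PRDM1, a transcription factor of plasma cells, were higher in TH by 1.92 and 1.43, and CD40 and XBP1, which other cells also express, differed by 0.30 and 0.37 and were not called. The list summed to 604000 and 609000 in TH and 215000 and 213000 in DH. With names from RefSeq accessions alone, 5 members were left, of which 3 were called.

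Of 7 tested erythroid genes 3 were higher in TH and none in DH (42.9%, beside 13.7% of all named genes). The median difference of the 7 was 0.95, and with names from RefSeq accessions alone 1 of 3 was called. CA1, the carbonic anhydrase of red cells, had 10.90 and 10.93 in TH and 6.94 and 6.89 in DH, a 16-fold higher level in TH and a difference of 4.0 (SE 0.04, adjusted p = 0.00129). KLF1, the erythroid transcription factor, differed by 1.18 (SE 0.07, adjusted p = 0.00343). TFRC, the transferrin receptor, had 5.46 and 6.02 in TH and 4.72 and 4.69 in DH, no DH array being well above background, and lay at least 1.08-fold higher in TH; the call was lost without the second TH array or without either DH array (adjusted p = 0.0252 at a difference of 0.76, 0.145 and 0.152). HBB, the adult beta globin, had 11.28 and 11.24 in TH and 10.31 and 10.31 in DH, a difference of 0.95 (SE 0.03, adjusted p = 0.00182) that fell short of 1 log2 unit and reached 1.02 with scaling to the 75th percentile and 1.01 with quantile normalization over the 4 arrays. HBE1, an embryonic globin outside the rule, differed by -0.49 and was not called. The list summed to 22900 and 22700 in TH and 11700 and 11400 in DH. How far blood in the tissue entered the differences of circulating cells was not tested.

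Markers of macrophages, T cells and mast cells did not follow that direction. Of 16 tested genes of alveolar macrophages none was higher in TH and 2 were higher in DH (12.5%). Their median was -0.43, and the share called was near the 13.7% of all named genes. CHIT1, the chitinase of activated macrophages, had 6.04 and 5.94 in TH and 8.64 and 8.71 in DH, a difference of -2.68 (SE 0.05, adjusted p = 0.00146), and MRC1, the mannose receptor, had 14.43 and 14.44 in TH and 15.52 and 15.51 in DH, a difference of -1.08 (SE 0.03, adjusted p = 0.00159). Both lay higher on each DH array than on any TH array, and the list summed to 510000 on both TH arrays and to 738000 and 725000 on the DH arrays. The number of called macrophage genes was 4 with scaling to the 75th percentile, 4 when any tested probe of a gene counted, and 0 of 14 with names from RefSeq accessions alone. Of 18 genes of T cells and natural killer cells 1 was higher in TH and 2 in DH (16.7%, also near 13.7%). Their median was -0.08. GZMB (granzyme B), a killer cell protease, had 12.26 and 12.27 in TH and 14.36 and 14.48 in DH, a difference of -2.16 (SE 0.05, adjusted p = 0.00159), and the receptor KLRB1 had 10.66 and 10.64 in TH and 12.31 and 12.27 in DH, a difference of -1.64 (SE 0.03, adjusted p = 0.00144). CTLA4, an inhibitory receptor of T cells, differed by 1.01 (SE 0.08, adjusted p = 0.00542) and fell short of 1 log2 unit without the second TH array (0.92) or the second DH array (0.99). The T cell receptor chains CD3D, CD3E and CD3G differed by 0.51, 0.33 and -0.23 and were not called; they fell outside the rule for named genes. Of 4 tested genes of mast cells, eosinophils and basophils 1 was called (25%, beside 13.7% of all named genes). It was CCR3, the eotaxin receptor, higher in DH (9.77 and 9.74 in TH and 10.73 and 10.81 in DH). Its difference was -1.02, and -0.98 without the second DH array.

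**Figure D3:**
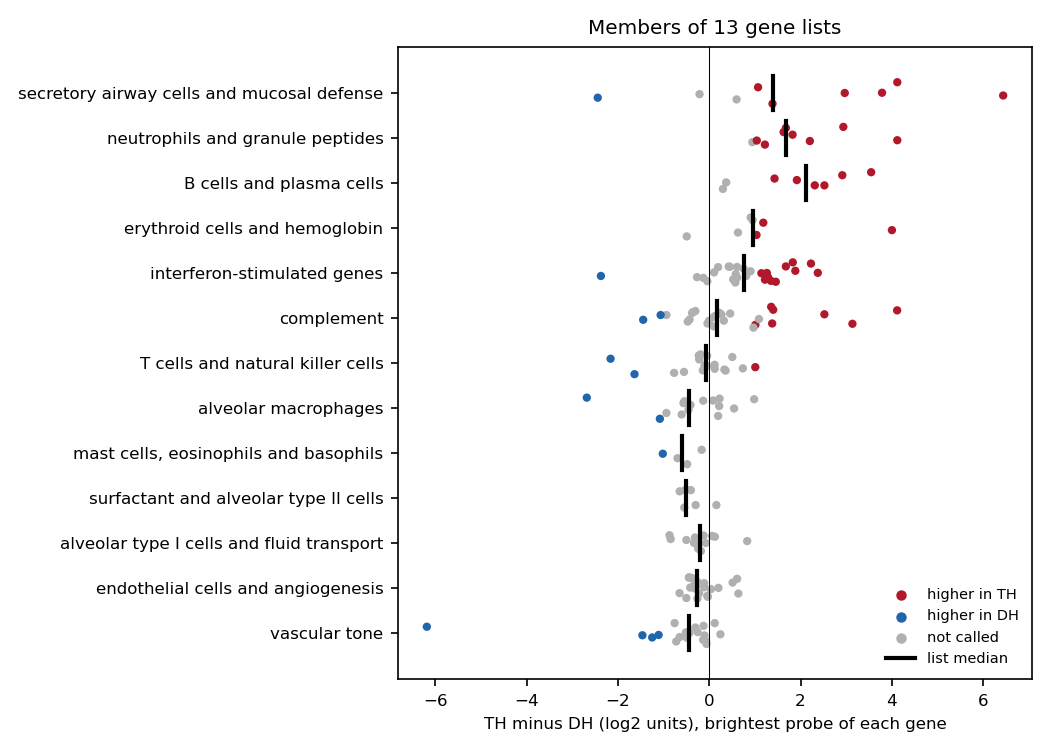
TH minus DH (log2 units) of each tested gene, at its brightest probe, in 13 gene lists; dots are genes, colored by call, and black bars are list medians. Airway secretory, neutrophil, B cell, erythroid and interferon-stimulated genes lie mostly to the right of 0, with medians of 1.39, 1.68, 2.12, 0.95 and 0.75, and vascular tone genes mostly to the left, with a median of -0.44.

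Interferon-stimulated genes, which cells switch on against viruses, were the list with the most members higher in TH. Of 27 tested, 11 were higher in TH and 1 in DH (44.4%, beside 13.7% of all named genes). The median difference of the 27 was 0.75, and 23 had a positive difference. RSAD2 (viperin), which blocks viral replication, had 13.24 and 13.27 in TH and 11 and 10.76 in DH, a difference of 2.38 (SE 0.11, adjusted p = 0.00255). MX1, an antiviral GTPase, had 16.87 and 16.89 in TH and 14.63 and 14.68 in DH, a difference of 2.23 (SE 0.03, adjusted p = 0.00133), and the other MX1 probe differed by 2.24. ISG15, a ubiquitin-like protein induced by interferon, had 16.68 and 16.67 in TH and 14.74 and 14.84 in DH, a difference of 1.89 (SE 0.05, adjusted p = 0.00158). TH was 3.70-fold to 5.20-fold higher in these 3 genes, which were named for the size of their differences. CXCL9, a chemokine that interferon gamma induces, had 8.52 and 8.46 in TH and 10.89 and 10.83 in DH and was 5.18-fold higher in DH, the only called member in that direction. Outside the rule, the others higher in TH were IFIT1, DDX58 (RIG-I), USP18, IRF7, IFI44L, OAS1, OASL and EIF2AK2 (PKR), which sense or block viral RNA or tune the response, with differences of 1.83, 1.46, 1.35, 1.68, 1.29, 1.26, 1.14 and 1.22. With RefSeq accessions alone, 7 of 20 members were called.

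Among sensors of microbial products, 3 of 25 tested genes of Toll-like receptors and NF-kB were higher in TH and none in DH (12%), near the 13.7% called among all named genes. TLR10 had 11.14 and 11.20 in TH and 9.36 and 9.34 in DH, a difference of 1.82 (SE 0.04, adjusted p = 0.00147), and TLR7, a receptor for viral RNA, had 11.56 and 11.58 in TH and 10.31 and 10.33 in DH, a difference of 1.25 (SE 0.03, adjusted p = 0.00149). LBP, which hands bacterial lipopolysaccharide to its receptor, differed by 1.67 (SE 0.09, adjusted p = 0.00328). B cells also express TLR7 and TLR10, and both lay higher in TH together with the B cell genes, whose part in these differences was not tested. The median of the list was -0.01 and 0.11 to 0.22 under the other scalings. Of 40 tested cytokines, chemokines and their receptors 4 were higher in TH and 3 in DH (17.5%, near the 13.7% of all named genes). With names from RefSeq accessions alone, 4 of 36 were called. Beside AMCF-II and CCL24, the decoy receptor IL1R2 had 10.58 and 10.68 in TH and 8.52 and 8.56 in DH, a difference of 2.09 (SE 0.05, adjusted p = 0.00159), and CCL20, a chemokine of inflamed epithelium, had 11.32 and 11.28 in TH and 9.19 and 9.35 in DH, a difference of 2.04 (SE 0.07, adjusted p = 0.00207). Both were about 4-fold higher in TH, at 4.25-fold and 4.10-fold. Outside the rule, CCL2, a monocyte chemokine, was higher in TH by 1.28, and CX3CR1, the fractalkine receptor of monocytes, and IL4, a cytokine of type 2 immunity, differed by -1.44 and -1.41, higher in DH, IL4 with no TH array well above background.

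Complement, a cascade of plasma proteins that tags and lyses microbes, had 7 of 26 tested genes higher in TH and 2 in DH. This was 34.6%, beside 13.7% of all named genes, and the median of the 26 was 0.17. MBL2, a mannose-binding lectin that starts the cascade, had 8.35 and 8.38 in TH and 3.86 and 4.62 in DH and lay at least 6.66-fold higher in TH, with neither DH array well above background. C8B, a component of the membrane attack complex, had 7.84 and 7.10 in TH and 3.98 and 4.69 in DH and lay at least 3.6-fold higher in TH, but its call was lost without the first TH array (adjusted p = 0.0550) or without the first DH array (adjusted p = 0.0611). CFI, which inactivates complement, had 6.45 and 6.33 in TH and 7.79 and 7.88 in DH and was 2.73-fold higher in DH. CR2 counted here as among B cells. Outside the rule, C4A, C8G, C8A and C7, components of the cascade, were higher in TH by 1.40, 1.38, 1.36 and 1.01, and C4BPA, an inhibitor, differed by -1.06, higher in DH. With the offset of 50 the differences of C8B (0.99) and CFI (-0.60) fell short of 1 log2 unit. None of 18 tested genes of MHC and antigen presentation was called at its brightest probe, and 1 was when any tested probe counted. At the brightest probes the median was -0.06. The largest differences there were 0.61 (SE 0.03) at TAP1, the peptide transporter, and 0.52 at PSMB8, a subunit of the immunoproteasome.

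Of 7 tested genes of oxygen sensing 1 was higher in TH (14.3%, near the 13.7% of all named genes). The median difference was 0.07, and with names from RefSeq accessions alone 0 of 2 were called. EGLN3, the prolyl hydroxylase that hypoxia itself induces, had 11.45 and 11.39 in TH and 9.49 and 9.57 in DH, a 3.71-fold higher level in TH and a difference of 1.89 (SE 0.05, adjusted p = 0.00159), and its other probes differed by 1.09 to 1.98. HIF1A had 14.87 and 14.82 in TH and 14.18 and 14.20 in DH, a difference of 0.65 (SE 0.03, adjusted p = 0.00299), and EGLN1 had 12.90 and 12.84 in TH and 12.51 and 12.54 in DH, a difference of 0.34 (SE 0.04, adjusted p = 0.00929); both lay beyond the spread between arrays and below 1 log2 unit. EPAS1, the HIF-2 alpha subunit prominent in endothelium, had 13.66 and 13.65 in TH and 13.96 and 13.89 in DH, a difference of -0.27 (SE 0.04, adjusted p = 0.0137), and its 3 other probes differed by -0.76 to -0.47. EGLN2 differed by 0.07 (SE 0.06, adjusted p = 0.353) and did not pass.

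Of 20 tested targets of hypoxia-inducible factors, 4 were higher in TH and 1 in DH (25%, beside 13.7% of all named genes). The median of the 20 was 0.11. EPO (erythropoietin), the hormone of red cell production, had 6.93 and 6.75 in TH and 4.55 and 3.16 in DH; neither DH array was well above background, TH was at least 2.32-fold higher, and the call was lost without either TH array (adjusted p = 0.121 and 0.111). HK2, a hexokinase of glycolysis, had 8.07 and 7.99 in TH and 6.80 and 6.83 in DH, a difference of 1.21 (SE 0.04, adjusted p = 0.00203) that was 0.60 with the offset of 50. HMOX1 (heme oxygenase 1), which degrades heme and is induced by many stresses, had 14.93 and 14.91 in TH and 16.52 and 16.52 in DH and was 3.02-fold higher in DH. EGLN3 and TFRC made up the 4, and the call of TFRC was lost with single arrays left out, as given with the erythroid genes. VEGFA, the vascular growth factor, had 11.70 and 11.69 in TH and 11.61 and 11.65 in DH, a difference of 0.06 (SE 0.03, adjusted p = 0.165) within the spread, and its other probes differed by 0.34 to 0.45. DDIT4, LDHA and ADM, targets that fell outside the rule for named genes, differed by 0.00, 0.08 and -0.13 and did not pass.

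Genes of vascular tone were higher in DH where they were called. Of 19 tested genes none was higher in TH and 4 were higher in DH (21.1%, beside 13.7% of all named genes). The median of the 19 was -0.44, and 17 of them had a negative difference. Beside NPPB, EDN1 (endothelin 1), the vasoconstrictor peptide of endothelium, had 11.51 and 11.55 in TH and 12.78 and 12.78 in DH, a 2.38-fold higher level in DH and a difference of -1.25 (SE 0.03, adjusted p = 0.00161). EDN3, a related peptide, had 11.36 and 11.28 in TH and 12.43 and 12.43 in DH, a difference of -1.11 (SE 0.04, adjusted p = 0.00215), and both its other probes differed by -1.28. EDNRB, the endothelin receptor that clears the peptide and releases nitric oxide, had 9.43 and 9.34 in TH and 10.87 and 10.83 in DH, a difference of -1.46 (SE 0.05, adjusted p = 0.00184), while its other probe differed by -0.68 and was not called. These genes were called, so that groups without overlap follow largely from that choice. NOS3, the endothelial nitric oxide synthase, had 14.18 and 14.17 in TH and 14.84 and 14.81 in DH, a difference of -0.65 (SE 0.03, adjusted p = 0.00245), and ACE, which makes angiotensin II, had 9.96 and 10.06 in TH and 10.45 and 10.44 in DH, a difference of -0.44 (SE 0.05, adjusted p = 0.0103); neither reached 1 log2 unit. EDN3 was -0.93 with the offset of 50. Endothelial markers lay on the same side by less, with none of 21 called, a median of -0.26 and sums of 832000 and 829000 in TH and 1020000 on both DH arrays, and their part in the vascular tone differences was not tested. CALCRL, a receptor for adrenomedullin, and ANGPT1, a ligand of endothelial TEK, had the largest endothelial differences, -0.65 (SE 0.03) and 0.64 (SE 0.03). Counting any tested probe of a gene, 2 endothelial genes were called, CALCRL among them (-1.05 at its lowest probe).

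RGS5, a pericyte regulator of G protein signaling, was higher in TH. It was the 1 called of 10 tested genes of smooth muscle and pericytes (10%, beside 13.7% of all named genes). It had 12.90 and 12.95 in TH and 10.29 and 10.27 in DH, a 6.25-fold higher level in TH and a difference of 2.64 (SE 0.04, adjusted p = 0.00129). The other 9 ranged from -0.77 at MYOCD, a coactivator of contractile genes, to 0.20 at CALD1, and 4 of them passed the adjusted p without the minimum difference. The list's median was -0.08, with 3 of 10 differences positive. MYH11 and CNN1, which define the contractile cell, differed by -0.01 and 0.00. These 4 members fell outside the rule for named genes.

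Alveolar genes had mostly negative differences short of the minimum. None of 7 tested genes of surfactant and alveolar type II cells was called, yet all 7 passed an adjusted p of 0.05, with a median of -0.50 and sums of 892000 and 900000 in TH and 1130000 and 1180000 in DH. SFTPC differed by -0.40 (SE 0.07, adjusted p = 0.0207), SFTPB by -0.55 (SE 0.03, adjusted p = 0.00367) and HOPX, a transcription cofactor of alveolar cells, by -0.65 (SE 0.03, adjusted p = 0.00299). Their DH arrays all lay above their TH arrays. Of 12 genes of alveolar type I cells and fluid transport none was called (median -0.21). AQP1, a water channel of the capillary wall, had 7.46 and 7.54 in TH and 8.38 and 8.37 in DH, a difference of -0.87 (SE 0.04, adjusted p = 0.00277), and SCNN1A, a subunit of the sodium channel that clears alveolar fluid, differed by -0.85 (SE 0.40, adjusted p = 0.171), with its DH arrays at 7.29 and 6.33. Of the ciliated cell list only SPAG6 was tested, with 0.89 (SE 0.03) and no call, so that ciliated cells could not be described.

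Enzymes that handle foreign compounds differed in both directions. Of 24 tested genes of xenobiotic and aldehyde metabolism, 8 were higher in TH and 3 in DH (45.8%, beside 13.7% of all named genes). The median of the 24 was 0.31. ADH1C, an alcohol dehydrogenase, had 14.27 and 14.24 in TH and 10.93 and 10.92 in DH, a 10.0-fold higher level in TH and a difference of 3.33 (SE 0.03, adjusted p = 0.00129). CYP2E1, which oxidizes ethanol and small solvents, had 13.36 and 13.37 in TH and 10.74 and 10.72 in DH, a difference of 2.64 (SE 0.03, adjusted p = 0.00129), and CYP2C33 had 8.90 and 8.99 in TH and 6.15 and 6.47 in DH, a difference of 2.63 (SE 0.14, adjusted p = 0.00307), with other probes at 0.82 to 2.03. TH lay above DH in these 3 genes on every array, opposite to CYP1A1. Outside the rule for named genes, the other members higher in DH were UGT2B31, a glucuronosyltransferase, with -2.05 (SE 0.04), and AKR1C1, an aldo-keto reductase, with -1.17 (SE 0.06). Also outside it, CYP4A21, UGT1A6, ALDH1A1, CYP2C49 and NQO1 were higher in TH by 2.56, 1.98, 1.47, 1.23 and 1.04. AHR, the receptor that induces CYP1A1, differed by 0.57 and was not called.

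Some genes of fuel use and stress protection were higher in DH and others in TH. UCP3, a mitochondrial carrier linked to fatty acid use, had 9.62 and 9.53 in TH and 12.46 and 12.50 in DH, a 7.51-fold higher level in DH and a difference of -2.91 (SE 0.05, adjusted p = 0.00139). PDK4, the kinase that turns pyruvate oxidation off in fasting, had 12.23 and 12.23 in TH and 14.54 and 14.56 in DH, a difference of -2.32 (SE 0.03, adjusted p = 0.00129), and its 3 other probes differed by -2.26 to -1.98. MT1A, a metallothionein that binds zinc and copper, had 13.89 and 13.92 in TH and 16.26 and 16.28 in DH, a difference of -2.37 (SE 0.03, adjusted p = 0.00129). In all 3 genes both DH arrays lay more than 2 log2 units above both TH arrays. CIDEC and PLIN1, proteins of the lipid droplet, differed by -1.33 (SE 0.06) and -1.31 (SE 0.07). SREBF1, a regulator of lipid synthesis outside the rule, was among the genes higher in TH (1.24). The difference of PLIN1 was -0.51 with the offset of 50. In the list of fat storage and lipid metabolism, 2 of 31 tested genes were higher in TH and 3 in DH (16.1%). Counting any tested probe, 8 genes of that list were called. Of 17 genes of glycolysis and pyruvate metabolism, HK2 was higher in TH and PDK4 in DH (11.8%). The shares of 16.1% and 11.8% lay near the 13.7% of all named genes.

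Of 28 tested antioxidant enzymes 2 were higher in TH and 3 in DH (17.9%, beside 13.7% of all named genes). The median was 0.00. Beside MT1A and HMOX1, GSTA2, a glutathione transferase, had 8.63 and 8.70 in TH and 10.48 and 10.42 in DH, a difference of -1.78 (SE 0.05, adjusted p = 0.00159). PRDX4, a peroxiredoxin of the secretory pathway, had 16.43 and 16.41 in TH and 15.26 and 15.28 in DH, a difference of 1.15 (SE 0.03, adjusted p = 0.00159), and was higher in TH, as was NQO1. The superoxide dismutase SOD2 and catalase (CAT), outside the rule for named genes, differed by 0.30 and -0.35 and were not called. Of 12 genes of iron handling 3 were higher in TH and 3 in DH (50%, beside 13.7% of all named genes). HPX (hemopexin), which scavenges heme from plasma, had 13.20 and 13.19 in TH and 11.11 and 11.10 in DH, a difference of 2.09 (SE 0.03, adjusted p = 0.00129), and TF (transferrin), the iron carrier of plasma, had 13.91 and 13.92 in TH and 15.08 and 15.02 in DH, a difference of -1.13 (SE 0.03, adjusted p = 0.00182), while the other TF probe differed by -0.14. LTF and TFRC were the others higher in TH, HMOX1 and SLC11A1, a metal transporter of macrophage vesicles outside the rule with -1.07 (SE 0.03), the others higher in DH.

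Of 19 tested genes of metalloproteinases and their inhibitors 3 were higher in TH and none in DH (15.8%, near the 13.7% of all named genes), with 12 of 19 differences positive. The collagenase MMP1, outside the rule, had the lowest difference, -1.74, and was not called (adjusted p = 0.0543). Beside MMP7 and MMP9, SERPINA1 (alpha-1 antitrypsin), the main inhibitor of neutrophil elastase, had 12.21 and 12.28 in TH and 10.28 and 10.26 in DH, a difference of 1.97 (SE 0.04, adjusted p = 0.00146), and its other probe 1.96. Of 21 genes of collagens and extracellular matrix 2 were higher in TH (9.52%), VTN (vitronectin; 12.24 and 12.23 in TH and 10.97 and 11 in DH) and SPARC, a collagen-binding protein (17.43 and 17.44 in TH and 16.38 and 16.40 in DH). The difference of SPARC was 1.05 (SE 0.03, adjusted p = 0.00159) and 0.94 with scaling to the 75th percentile, and its other probes ranged from -0.19 to 1.5. COL1A1, COL1A2 and COL3A1, the fibrillar collagens, differed by -0.16, 0.40 and 0.65 and were not called. They fell outside the rule. Counting any tested probe of a gene, 6 genes of the list of collagens and extracellular matrix were called.

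Lists of basic cell functions had no called gene. None was called among 16 nuclear genes of oxidative phosphorylation (median 0.11, largest difference -0.40 at NDUFA5, then 0.30 at ATP5O), 29 cytosolic ribosomal proteins (median 0.00, -0.74 at RPL30 and 0.29 at RPL23), 18 heat shock proteins and chaperones (median 0.02, 0.87 at PDIA6, a chaperone of the endoplasmic reticulum, and 0.50 at ATF4), 16 genes of cell division (median 0.06, -0.84 at MCM5, of the replicative helicase, and 0.78 at CDK4) and 5 of the circadian clock (-0.75 at NPAS2 and 0.56 at NR1D2). Of these medians, those of ribosomal proteins and heat shock proteins changed sign under another scaling, ranging from -0.06 to 0.00 and from -0.02 to 0.03. Counting any tested probe of a gene, 2 ribosomal proteins were called.

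**Figure D4:**
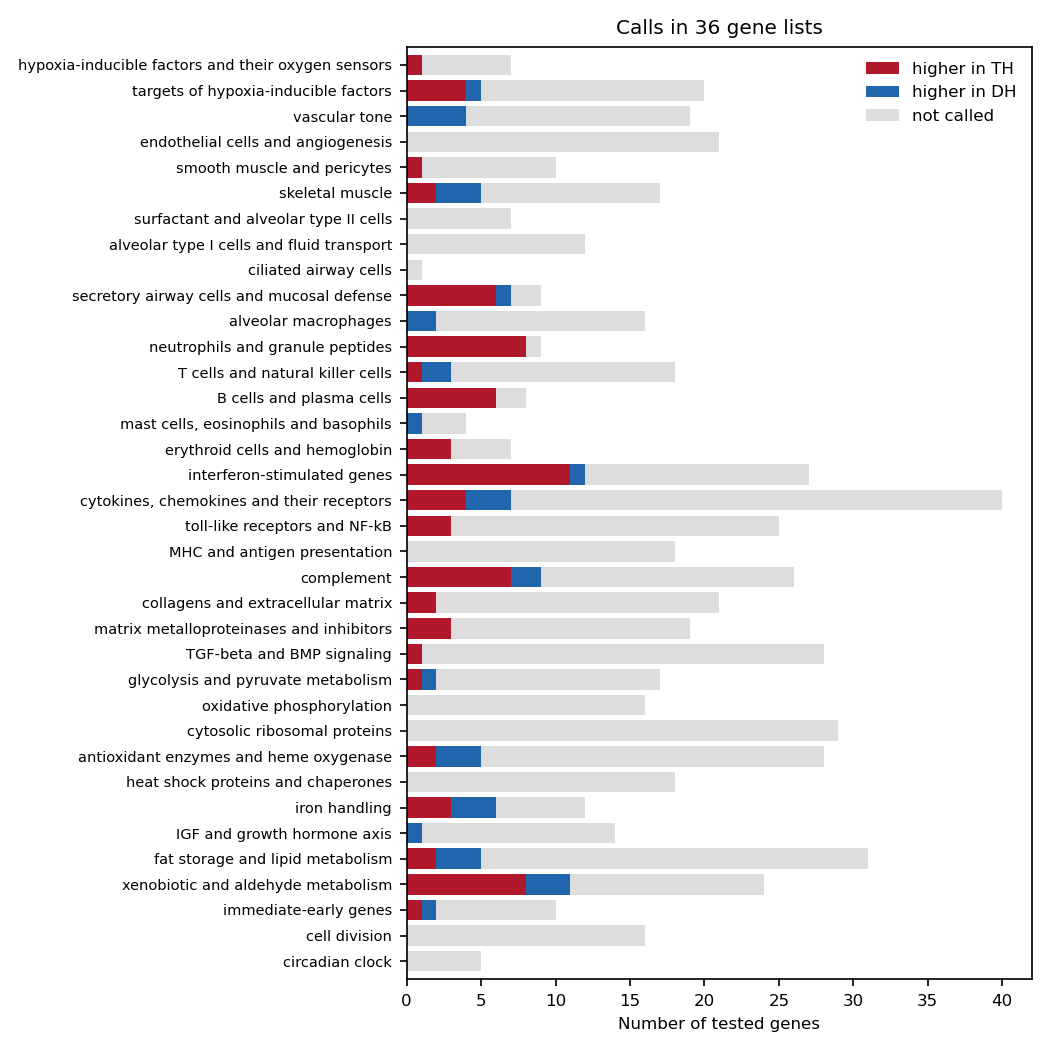
Number of tested genes, at the brightest probe, that were higher in TH, higher in DH or not called in each of 36 gene lists. Secretory airway, neutrophil and B cell lists are mostly red (6 of 9, 8 of 9 and 6 of 8 higher in TH), interferon-stimulated genes hold the most red of any list (11 of 27), and 10 lists hold no called gene.

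At 40 m the same breeds were measured on 4 other arrays, with the Tibetan group on the slide that held DH and the Duroc group on the slide that held TH. The 2 TL arrays stood apart from all others, with Pearson's r of 0.920 to 0.941 across probes, and TL lay below DL for most probes, so that the shares below are to be set against 37.0% of all tested probes with TL above DL. Of the 1565 probes higher in TH, 588 (37.6%) had TL above DL, and of the 1616 higher in DH, 784 (48.5%) had TL below DL. In all, 1372 of 3181 (43.1%) kept their sign, against 46.5% of the tested probes that were not called. Among genes with a symbol, 295 of the 514 called kept their sign (57.4%), 124 of 284 higher in TH (43.7%) and 171 of 230 higher in DH (74.3%), where TL lay above DL in 31.4% of all 3749 genes. Probes without a symbol kept their sign in 39.3% of 2459 calls. With the offset of 50 the share of called probes that kept their sign was 54.1%.

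Several leading genes separated the breeds in the same direction at both altitudes. AGR2 had 11.94 and 11.88 in TL and 8.68 and 8.69 in DL, a difference (TL minus DL) of 3.23. DMBT1 differed by 3.62 at 40 m and by 2.97 at 3500 m, and BPIFA1 by 6.91 and 3.79. In favor of Duroc, CYP1A1 had 8.27 and 8.27 in TL and 14.09 and 14.08 in DL, a difference of -5.82, NPPB differed by -2.72, MT1A by -2.04 and EDN1 by -2.21. Other genes did not keep the direction. TFF1 had 5.04 and 4.64 in TL and 9.33 and 9.31 in DL, the opposite order to that at 3500 m, and KIF1C had 6.26 and 6.32 in TL and 3.06 and 3.04 in DL, also the opposite. MMP7, SCG2 and IGKC, each high in TH, differed by 0.71, -0.10 and -0.10 between TL and DL, and the interferon-stimulated MX1 and ISG15 by -0.31 and 0.06. Of the 24 genes with the largest differences 18 had the same sign at 40 m, as did 29 of the 53 named genes higher in TH and 26 of the 34 higher in DH. For 21 of the 24 the breed difference itself differed between the altitudes at an adjusted p below 0.0001. This was a limma test of the interaction over all 8 arrays, which 33.1% of all tested probes passed. The 24 were chosen by TH minus DH, which is part of this contrast, so their share cannot be set against that of all probes. The contrast is also the same as that between the 2 slides.

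**Figure D5:**
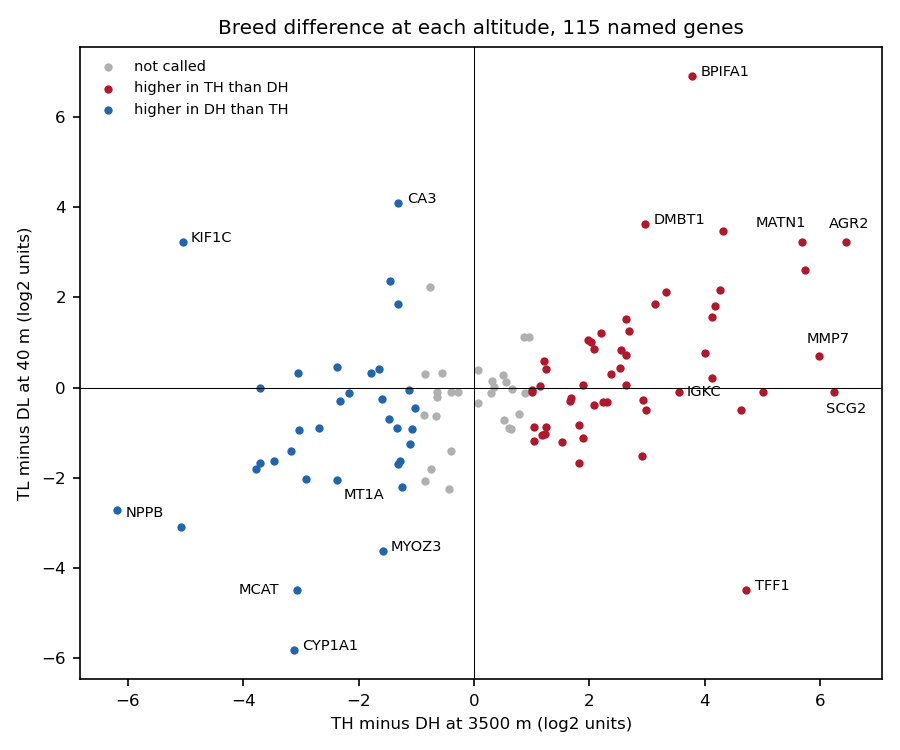
Breed difference at 40 m (TL minus DL, log2 units) against that at 3500 m (TH minus DH, log2 units) of the 115 named genes, each a dot colored by its call at 3500 m. AGR2, BPIFA1 and DMBT1 lie to the upper right, NPPB, CYP1A1 and MT1A to the lower left, and TFF1 and KIF1C in the quadrants of opposite sign.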

How the data were processed

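RNA from lung was labeled with 1 dye and hybridized to Agilent porcine arrays, 1 pig per array. The authors extracted the spot signals with Agilent Feature Extraction 10.7.3.1 and deposited log2 values, normalized by RMA according to the methods. These log2 values, with a median of 7.40 on every array and a Spearman's rho of at least 0.999987 with the deposited processed intensity, were used as given; the steps between are not given in the sources used here. The deposited intensity of each spot served for the alternatives and the calls above background.

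Groups came from the sample labels. Probes well above background on at least 1 of the 4 arrays were fitted by limma 3.58.1 (R 4.3.3) with a mean per group, moderated variances and Benjamini-Hochberg adjustment over all 30872, after a check on simulated data. The interaction used all 8 arrays. A probe was called at an adjusted p below 0.05 and at least 1 log2 unit.

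Symbols came from RefSeq accessions of the array design (2683 of 3250 matched, assembly Sscrofa11.1) and, for 2938 of 5353 named tested probes, from the study's gene tables alone. Those tables were used in part and were ordered by the study's own test. Array files name no genome build, and no coordinates or probe sequences are given.

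Named were, of called genes at their brightest probe, the 12 largest differences each way that were well above background on both arrays of the higher group, up to 4 called per list (or the 2 largest where none was called), and 12 genes of oxygen sensing, vascular tone and lung identity; other genes are marked where they appear as outside the rule. A few genes that count in the lists are not reported here by name. The comparison, the gene lists and the tests were chosen with earlier results of these data known. The gene lists come from textbook knowledge. Alternatives were other scalings and filters, other samples in the fit, an intensity trend, the unmoderated two-way model, other thresholds, leaving out single arrays, and blocking on the replicate number. The number of arrays limits the precision.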

Additional observations from a re-analysis of the deposited data

Results flagged for a closer look

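For 21 of the 24 genes with the largest differences between TH and DH, the breed difference itself differed between the altitudes, by a test of (TH minus DH) minus (TL minus DL) over all 8 arrays in limma at the methods' FDR of 0.0001, which 10205 of all 30872 tested probes also passed (33.1%). This contrast is the same as that between the 2 slides, so that slide and altitude cannot be told apart in it. It also uses the TL arrays that stand apart. The 24 genes were chosen by TH minus DH, which is part of the contrast, so their share cannot be set against the 33.1%.

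Among genes higher in TH, the interaction was 9.20 for TFF1, 6.35 for SCG2, 5.28 for MMP7, 5.12 for MLC1 and 5.10 for SERPINB11, genes in which the lead of the Tibetan pigs was not seen at 40 m or was small there (TL minus DL of -4.48, -0.10, 0.71, -0.50 and -0.10). It was 3.22 for AGR2, 3.13 for AMCF-II, 2.44 for MATN1, 2.56 for LTF, 2.09 for CLCA1 and 0.86 for ADGRF1, whose difference had the same sign at both altitudes.

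Among genes higher in DH, the interaction was -8.29 for KIF1C, whose order was reversed at 40 m, -3.70 for TYR, which lay at the floor in all 3 other groups, and -3.39 for ADAMTS19 (TL minus DL of 0.33). It was -3.47 for NPPB, -2.08 for EYA3, -2.05 for IGSF6, -2.0 for IGSF5 and -1.77 for CCL24, all with the same sign at 40 m. It was 2.71 for CYP1A1 and 1.41 for MCAT, with TL minus DL of -5.82 and -4.48. RHCG, SNX16 and CLCN5 did not pass. Where a gene was not well above background in a group, the size of its interaction depends on the floor of the array, and which altitude had the larger difference is not settled.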

How the results depend on the processing

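The count of 3181 called probes stayed between 2512 and 3564 with other scalings (except the offset of 50), with no filter on dim probes or one on both arrays of a group, with 8 or 6 arrays in the fit, with an intensity trend and with the unmoderated model; shares higher in TH lay between 48.6% and 54.8%. The offset of 50 gave 1017 (577 higher in TH, 440 in DH), and 54.1% of these kept their sign at 40 m. Requiring all 4 arrays above background gave 2098 (954 higher in TH). A threshold of 0.0001 gave 0 and 0 each way, 0.05 without a minimum 17509 (8409 and 9100), and a minimum of 2 log2 units 879 (536 and 343). Leaving out each array gave 3194 to 3411, of which 2686 to 2736 were among the 3181, with 1562 to 1666 higher in DH and 1567 to 1745 in TH.

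The replicate numbers of the labels do not pair the pigs of TH and DH (correlation of deviations across probes -0.01); with the replicate number as a block 3007 probes were called. No slide block could be fitted, since each group lay on 1 slide.

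Of 87 called named genes, 66 were called under all 11 alternatives, and none of the 115 named genes changed sign under any of them. The 11 were the 4 other scalings, leaving out each array, 8 or 6 arrays in the fit, and the block. Other filters and thresholds, the intensity trend and the unmoderated model were not among them. With the offset of 50, 19 lost their call, among them CLCN5, MCAT, EPO, HK2, EDN3, MYL1, CA3, CTLA4, CCR3, KLF1, TFRC, LBP, C8B, CFI, SMAD5, IGFBP3, PLIN1 and GADD45A. CTLA4, CCR3 and TFRC also lost it with normexp and no offset, SPARC with the 75th percentile, and RHCG, TFRC and C8B with the block (adjusted p = 0.061, 0.0744 and 0.0558). The interaction passed for 17 to 21 of the 24 genes with other scalings or a block and for 14 to 17 with an array left out. Of 36 list medians 31 kept their sign under all 4 scalings; the others were that of Toll-like receptors and NF-kB and those of ribosomal proteins, antioxidant enzymes, heat shock proteins and fat storage, the last 4 between -0.06 and 0.03. Dim genes, whose lower group is at the array's floor, have the least certain size. The causes of these shifts were not tested.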

Other observations

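Of 17 tested genes of skeletal muscle, a tissue that is not part of lung, 2 were higher in TH and 3 in DH (29.4%, beside 13.7% of all named genes), with a median of -0.06. ACTA1, the skeletal alpha actin, had 8.14 and 8.05 in TH and 5.35 and 5.46 in DH, a difference of 2.69 (SE 0.07, adjusted p = 0.00159), with 1 of the 2 DH arrays above background. MYL1, a fast myosin light chain, had 5.58 and 5.60 in TH and 3.09 and 3.0 in DH, and neither DH array was above background. Its mean in TH did not exceed the weakest signals above background on the DH arrays, so that its fold has no lower bound. MYOZ3, a protein of the Z-disc, had 10.07 and 10.07 in TH and 11.66 and 11.66 in DH and was 3.0-fold higher in DH, as was CA3, the carbonic anhydrase of muscle (7.17 and 7.41 in TH and 8.60 and 8.60 in DH; 2.48-fold). The myosin heavy chains MYH1 and MYH2 and the creatine kinase CKM, outside the rule for named genes, differed by -0.06, -0.03 and -0.05. The members thus moved in both directions, and the list summed to 12500 and 12000 in TH and 16000 and 16400 in DH. With the offset of 50 the differences of MYL1 (0.42) and CA3 (-0.72) fell short of 1 log2 unit.

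In each list of growth factor signaling 1 gene was called at its brightest probe, beside 13.7% of all named genes. Counting any tested probe of a gene, 3 were called in TGF-beta and BMP signaling and 1 in the IGF and growth hormone axis. With names from RefSeq accessions alone, these lists had 0 of 16 and 1 of 12 called. Of 28 tested genes of TGF-beta and BMP signaling, SMAD5, which carries BMP signals to the nucleus, was the 1 that was called (3.57%), with 10.39 and 10.31 in TH and 9.13 and 9.10 in DH and a difference of 1.23 (SE 0.04, adjusted p = 0.00198). Of 14 genes of the IGF and growth hormone axis, IGFBP3, the main carrier of IGF in plasma, was the 1 called (7.14%), higher in DH with 7.57 and 7.61 in TH and 8.84 and 8.89 in DH and a difference of -1.28 (SE 0.03, adjusted p = 0.00166). With the offset of 50 they were 0.93 and -0.69. Immediate-early genes respond within minutes to handling and stress. Of 10 tested, 1 was higher in TH and 1 in DH (20%, beside 13.7% of all named genes). NR4A3, an orphan nuclear receptor, was 2.49-fold higher in DH (10.93 and 10.91 in TH and 12.23 and 12.24 in DH). Its other probe differed by -0.37. GADD45A, a stress-induced growth inhibitor, was 2.02-fold higher in TH (14.19 and 14.16 in TH and 13.25 and 13.08 in DH). The call of GADD45A was lost without the first TH array (a difference rounding to 1.00 from below) or the second DH array (0.93). The median of that list was -0.05, and JUN and KLF6, outside the rule, differed by -0.51 and -0.55.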
